A study of Homo sapiens with 64 samples.

Results

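Genes with distant alternative 3′ ends are those whose annotated 3′ UTR intervals in the SLAM-seq tables lie at least 5000 nt apart. Distinct intervals were taken by chromosome, start, end, name and strand, and a gene was kept where all its intervals lay on 1 chromosome and strand and a gap of 5000 nt or more separated the most upstream interval from the most downstream one. This gave 7448 of 31796 gene names, holding 47561 of 99090 distinct intervals. The gap ranged from 5000 nt to 2110598 nt (RBFOX1), with a median of 23784 nt and quartiles of 11332 and 59120 nt. A member had a median of 4 intervals, 1343 members had 2, and SNHG14 had 236. Throughout, "upstream" and "downstream" name the outermost 2 intervals of a gene in the direction of transcription, and 5643 genes whose 2 separate intervals lay closer than 5000 nt ("near genes") are given for comparison.

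SLAM-seq, in which 4-thiouridine built into RNA is read as T>C changes, was run on C4-2 cells, an androgen-independent human prostate cancer line. Cells carrying a control siRNA (siCTRL) or an siRNA against FBL (siFBL) were labelled with 100 µM 4-thiouridine for 24 h, moved to 10 mM uridine, and collected at labelled hours 0, 6, 12 and 24, with 2 libraries for each siRNA and hour (16 in all) made with a 3′ end kit. FBL (fibrillarin) places 2′-O-methyl groups on RNA, guided by box C/D small nucleolar RNAs. For the same genes, 2 count tables per gene were read as well. One holds RNA immunoprecipitation (RIP) with an FBL antibody against input in siCTRL C4-2 cells (2 libraries each), the other C4-2 RNA-seq with siCTRL or siFBL at 0 h (2 libraries each, fitted with the 3, 6 and 12 h libraries of the same series). The labels do not say whether replicates were separate cultures, so the p-values measure a spread between samples that may be technical.

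Most human genes can end their mRNA at more than 1 place. Cleavage and polyadenylation factors, among them CPSF, CstF and the poly(A) polymerase PAPOLA, read a hexamer, usually AATAAA or ATTAAA, shortly before the cleavage site. Where the alternative ends share the last exon, only the 3′ UTR changes in length. Where they lie in an intron or in another last exon, the end chosen also changes the protein, as in soluble receptors that lack the membrane-spanning part. A long gap usually means the second kind.

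The intervals were checked against GENCODE v29 on GRCh38. Of the members' upstream intervals 31.1% ended within 2 nt of an annotated transcript end, against 71.5% of the downstream ones, and 8.5% and 5.1% overlapped coding sequence. Upstream intervals had a median length of 173 nt and downstream ones of 628 nt. The "3′ UTR" of the tables is thus often not the end of a listed transcript on the upstream side. By annotated type, 2941 members were protein coding, 891 lincRNA and 367 antisense, and 3092 names had no match in that annotation. Another gene's interval overlapped 3.6% of upstream and 4.9% of downstream intervals, so a read there counts for both. At the threshold, TRIM73 and ASCC1 lay inside with a gap of 5000 nt, and LINC01018 with 4996 nt and RP11-228B15.4 with 4994 nt lay outside.

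The ends of 5 genes are shown because the comparisons below turn on them. Each line runs 5′ to 3′ from GENCODE v29 transcripts (GRCh38), with the hexamer in capitals.
COQ4 upstream, chr9:128323543-128323572, plus strand: tagtaaatgctcAATAAAtgtttgctggat
COQ4 downstream, chr9:128334038-128334067, plus strand: ggcgagtgtgtgAATAAAggctcccatcag
FLCN upstream, chr17:17221172-17221201, minus strand: tgctcctttacaAATAAAgtgttctgtttc
FLCN downstream, chr17:17212216-17212245, minus strand: acattggaacacAATAAAgatgtatttttg
PAPOLA upstream, chr14:96532224-96532248, plus strand: ggaagcattaccATTAAActtttga
CSTF3 downstream, chr11:33084586-33084615, minus strand: agtcctttaaaaAATAAAaggattcagaaa
ATM upstream, chr11:108229334-108229363, plus strand: ttataaattataAATAAAtggcttaacaga
ATM downstream, chr11:108369069-108369098, plus strand: aaagtgtttttgAATAAAtaattctaaaag
In COQ4, FLCN and ATM both ends carry an AATAAA, while the upstream end of PAPOLA carries ATTAAA. The plain forms AATAAA and ATTAAA were searched on the transcript strand in the last 50 bases of every interval. Either was present in 20.8% of the members' upstream intervals, 56.5% of their downstream intervals and 36.7% of all intervals. Among members with at least 20 reads in each interval the shares were 53.7% upstream and 74.9% downstream. These members were chosen by reads in both intervals, and the difference from the shares above was not tested.

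Mapped reads per SLAM-seq library ranged from 14.3 to 60.3 M, counts per library from 22.9 to 33.3 M in RIP and from 79.0 to 106.1 M in C4-2 RNA-seq. The label hour and the hour written in the file header differ in 12 of 16 libraries. At labelled 0 h the siCTRL libraries held 56.8% and 11.1% reads with T>C. Sorted by header hour, siCTRL held 56.7 to 56.8% at 0 h, 34.9 to 35.5% at 6 h, 23.0 to 23.2% at 12 h and 11.1 to 11.2% at 24 h. The T>C shares thus followed the header hour and not the label. Values over hours are therefore given by header hour. Tests of siRNA still carry the labelled hour, as designed, so their spread also holds differences between header hours. With both siRNAs, labelled 0 h and labelled 12 h each hold a header 0 h and a header 24 h library. Labelled 6 h and labelled 24 h each hold a header 6 h and a header 12 h library. A slope over labelled hours thus cannot follow the header hours, and its counts say nothing on change over them. The 2 siFBL libraries with header hour 24 stood apart, with 5.18% and 5.35% T>C reads, and results that rest on them are given without them too. FBL reads were 2 to 54 (median 28.5) per siCTRL library and 0 to 2 (median 0) per siFBL library. Of the luminal prostate markers, KLK3 had 1051 to 3455 RPM (reads per M mapped reads) and KLK2 212 to 995, while the leukocyte markers PTPRC and CD3E were at 0.0699 or less and 0.166 or less. Of the fibroblast markers COL1A2 was at 0, COL1A1 had 20.1 to 46.7 RPM and VIM 4.29 to 22.6, and their part in the results was not tested.

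Most members were read at the downstream end. Of 7448, 2929 had no read in either interval, 1865 had reads only downstream, 402 only upstream and 2252 in both. Among 2660 members with at least 100 reads in the pair, the downstream interval held a median of 97.9% of the pair's reads over the 16 libraries. It held over 90% in 1754 (65.9%), 60 to 90% in 350 (13.2%), 40 to 60% in 109 (4.1%), 10 to 40% in 164 (6.2%) and under 10% in 283 (10.6%). Among 2173 near genes the median was 99.85%, with over 90% in 80.3% and under 10% in 5.8%. The median downstream share fell in steps with the gap, from 99.29% in 577 members with gaps under 10000 nt to 97.78% in 597 from 10000 nt, 97.55% in 776 from 20000 nt and 96.95% in 710 from 50000 nt.

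**Figure D1:**
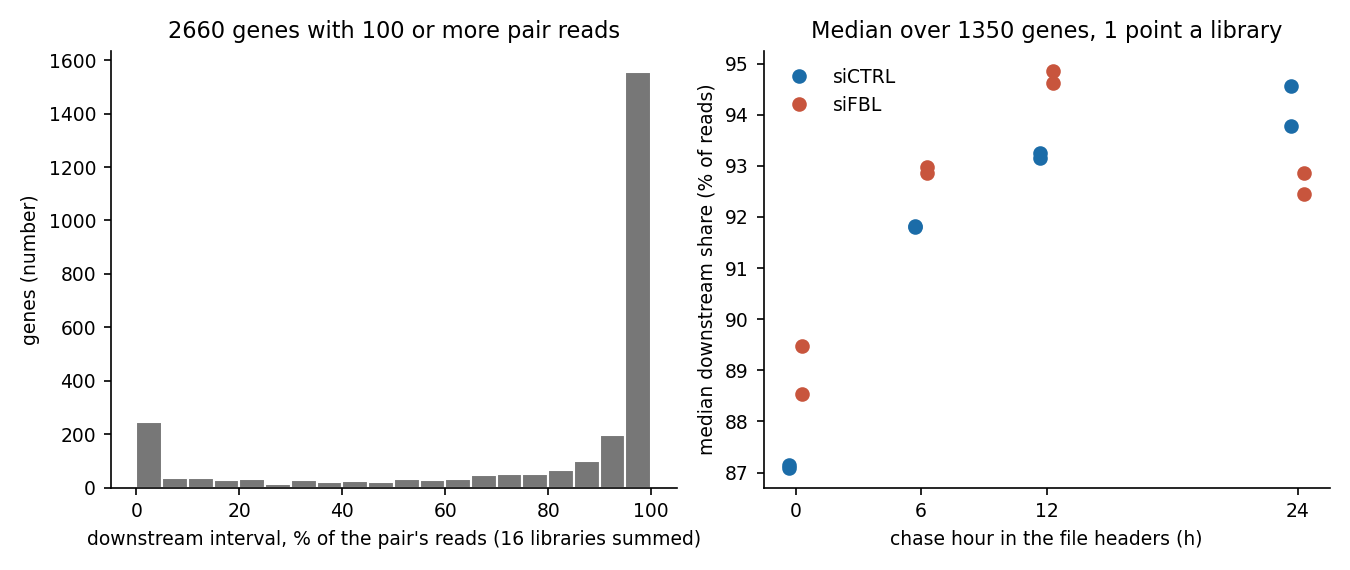
Left, number of genes by the downstream interval's share of the pair's reads (%) for the 2660 genes with at least 100 reads; right, the median downstream share (%) over 1350 tested genes against the header hour (h), 1 point a library. The left panel peaks above 90% with a smaller group under 10%, and the right panel rises from 87.1% to 94.6% in siCTRL.

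The members with the most reads in each class show what these ends are. RPL37A, a large-subunit ribosomal protein, had 722340 reads in its upstream interval (59 nt, chr2:216501405-216501463) and 845 in one that lies 77470 nt further on. ATP5MG, a subunit of mitochondrial ATP synthase, had 361632 reads upstream and 30 downstream. SLIRP, a mitochondrial RNA-binding protein, had 283050 upstream and 0 downstream. In these highly expressed genes the upstream interval is the main one of the pair and the downstream one is barely read. PNKD had 31262 reads upstream and 21330 downstream over a gap of 72034 nt, and TOR1AIP2, an endoplasmic reticulum cofactor of torsin, had 17349 and 19312. COQ4, a ubiquinone synthesis protein, had 15173 and 19043, and EIF2B5, the catalytic subunit of a translation initiation factor, 15336 and 18355. Both intervals of these 4 genes were read at similar depth. Whether such reads arise at A-rich stretches just after an interval (internal priming) could not be checked, as no genome sequence was at hand. STIP1, a co-chaperone, had 0 reads upstream and 202933 downstream, and LIMCH1, an activator of non-muscle myosin, 301 and 181016.

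The share of downstream reads did not pass a test between the siRNAs for any member. The median downstream share over 1350 members with at least 20 reads in each interval and 10 in the pair in 8 libraries was 87.1 to 94.6% in the 8 siCTRL libraries (median 92.5%) and 88.5 to 94.9% in the 8 siFBL libraries (median 92.9%), so the groups overlap. The quasi-likelihood test of edgeR, with p-values adjusted by Benjamini-Hochberg over all pairs and called below 0.05, gave 0 of 1350 (background over all 2174 tested pairs, 0.0%), with 69 below an unadjusted p of 0.05 (31 higher and 38 lower with siFBL) and a smallest adjusted p of 0.488. DESeq2 called 3, MFAP3L and PDCD6 higher and PRDM2 lower (background 0.322%). The median log2 change of the downstream to upstream ratio was 0.12 in members and 0.005 over all pairs, and the median standard error of a member was 0.86. On simulated counts the test found 3% of 2-fold, 38.8% of 4-fold and 65.2% of 8-fold changes in usage, so most 2-fold changes would be missed. The spread of these counts was estimated with labelled hours and so also holds differences between header hours. The part of depth was not tested.

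The members nearest to the threshold were named by their p. MFAP3L, a membrane protein of the immunoglobulin family, had downstream shares of 75.6 to 98.9% (median 89.6%) in siCTRL and 96.4 to 100.0% (median 99.0%) in siFBL. The ranges overlap, and the ratio was higher with siFBL by 3.44 ± 0.78 (log2 ± SE, edgeR adjusted p = 0.488). Its upstream interval held only 114 reads over all libraries. PDCD6, a calcium-binding protein of vesicle transport, had 93.1 to 97.7% (median 95.5%) in siCTRL and 96.0 to 98.5% (median 98.1%) in siFBL. The ranges overlap as well (1.11 ± 0.28, edgeR adjusted p = 0.609), and its downstream interval overlaps that of another gene.

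Over the header hours the downstream share moved in more members. With labelled hours, which cannot follow the header hours, 0 of 1350 members were called by edgeR (background 0.0%, 41 at an unadjusted p under 0.05). With header hours, an ordering added after the data were seen, the downstream share rose in 109 members (background 6.44%) and fell in 27 (background 2.58%). The median slope was 0.0205 log2 per hour in members, 0.0100 in all pairs and -0.0032 in near genes, of which 31 rose and 29 fell of 824. Without the 2 siFBL libraries that stood apart, 193 members rose and 40 fell. No share over all pairs is given for that fit, so these counts cannot be read against a background.

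COQ4 shows the rise. Its downstream share in siCTRL was 35.3% and 38.6% at header 0 h, 51.3% and 49.9% at 6 h, 66.6% and 58.0% at 12 h, and 68.0% and 65.3% at 24 h (0.09 log2 per hour, edgeR adjusted p = 4.63e-04). In siFBL it was 37.5% and 40.2% at 0 h and 78.5% and 80.9% at 24 h. The 24 h libraries lie above all 0 h libraries in both groups. CSTF3, a subunit of the cleavage stimulation factor, went from 20.7% and 17.3% at 0 h to 70.5% and 70.4% at 24 h in siCTRL, and from 31.5% and 29.2% to 47.9% and 51.6% in siFBL. PAPOLA went from 63.0% and 58.5% to 84.3% and 87.1% in siCTRL. TRA2B, a splicing regulator, moved the other way in siCTRL, from 83.8% and 85.3% at 0 h to 49.9% and 48.5% at 24 h (-0.07 log2 per hour, edgeR adjusted p = 0.0130). In siFBL it went from 81.6% and 79.3% to 64.8% and 65.2% at 12 h and 72.5% and 73.5% at 24 h.

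The 2 ends of a gene often differed in the share of reads with T>C. Of 694 members with at least 200 reads in each interval and 20 T>C reads over both, edgeR's test within libraries called a difference in 311 (44.8%, background 43.3%). The T>C share was lower downstream in 235 (33.9%, background 29.1%) and higher in 76 (11%, background 14.2%). Near genes were even, with 80 lower (20.7%) and 77 higher (19.9%) of 387. The median difference, as log2 odds of T>C downstream against upstream, was -0.83 in members, 0.01 in near genes and -0.50 in all pairs. That members and near genes differ was not tested. Computed as T>C conversions over sequenced T positions, 234 members were lower and 59 higher.

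**Figure D2:**
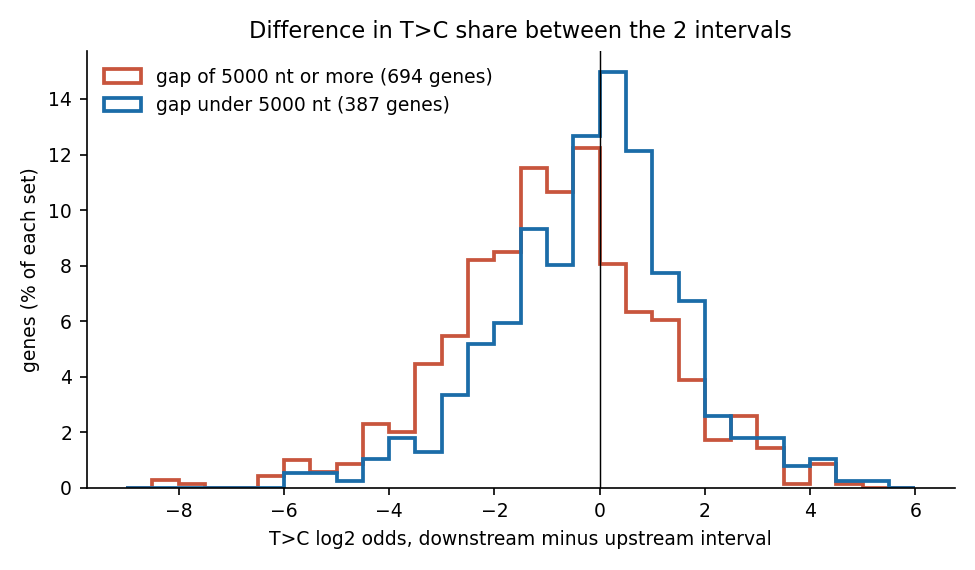
Distribution of the T>C log2 odds of the downstream minus the upstream interval, as % of each set, for members and near genes. Members are shifted to the left of 0 (median -0.83) and near genes centre on 0 (median 0.01).

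The shift grew with the gap. The median log2 odds were -0.34 for gaps under 10000 nt (30 lower and 21 higher of 134), -0.35 from 10000 nt (45 and 22 of 171), -1.01 from 20000 nt (85 and 21 of 217) and -1.36 from 50000 nt (75 and 12 of 172). Where the downstream interval had more reads, 197 were lower and 52 higher of 534 (median -0.96). Where the upstream interval had more, 38 were lower and 24 higher of 160 (median -0.33). Both kinds leaned the same way.

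Other features moved with the call. Members lower downstream had a median gap of 33757 nt, a median upstream length of 362 nt and a mean T content of 32.4% upstream and 29.8% downstream. Members higher downstream had 16578 nt, 824 nt, 26.3% and 29.3%. A hexamer stood in the upstream end of 68.1% of the former, 41.1% of the latter and 58.1% of members not called, and in the downstream end of 78.4%, 77.4% and 74.9%. These shares were not tested against each other. The part of T content and length in the read-based shares was not tested, though the count per T position above takes T content into account. In 16 of the 694 members 1 interval (11 upstream, 5 downstream) had T>C in over 50% of its reads in the header 24 h libraries. Without them the median was -0.81.

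By header hour the downstream ends kept less of their T>C share in most of the members with enough reads at each hour. In siCTRL, among 303 members with at least 50 reads in each interval at each hour, the median T>C share was 78.9% upstream and 77.4% downstream at 0 h, 42.8% and 28.6% at 6 h, 20.1% and 12.8% at 12 h, and 5.83% and 3.64% at 24 h. As a percentage of the 0 h value, the upstream ends kept a median of 58.0% and the downstream ends 39.95% at 6 h. The downstream end kept less in 205 of 303 members (67.7%) at 6 h, 188 (62.0%) at 12 h and 178 (58.7%) at 24 h. In siFBL, with 259 members, the medians were 70.1% and 67.6% at 0 h, 34.1% and 24.2% at 6 h, 17.4% and 9.44% at 12 h, and 3.29% and 2.34% at 24 h. The downstream end kept less in 163 (62.9%), 168 (64.9%) and 147 (56.8%) of them. In percentage points the medians of the 2 ends differed most at 6 h, with both siRNAs. Near genes were not measured in this way. Among all 694 tested members, those with reads at both ends in a library were compared by T>C share alone. At 6 h it was lower downstream in 67.1% and 65.7% (siCTRL) and 59.6% and 62.2% (siFBL). At 24 h it was lower in 43.1% and 50.5% (siCTRL) and 47.2% and 50.6% (siFBL).

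**Figure D3:**
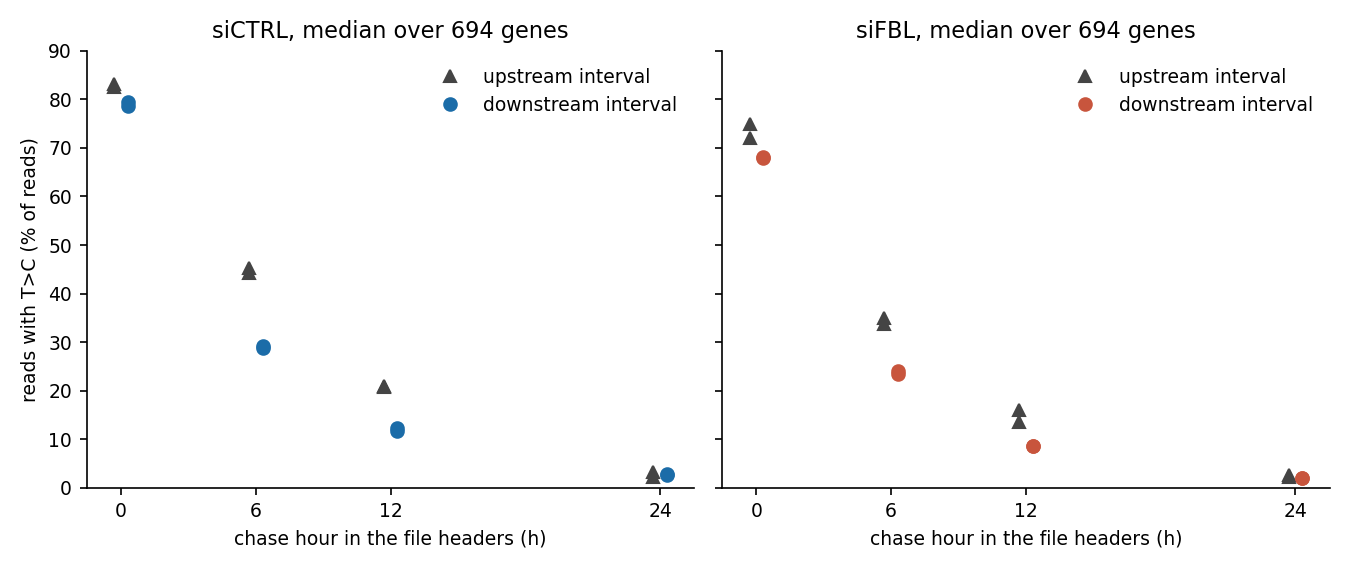
Median share of reads with T>C (%) over 694 genes in the upstream and downstream interval against header hour (h), 1 point a library, siCTRL left and siFBL right. The ends start close together at 0 h, and the downstream points lie below the upstream ones at 6 and 12 h.

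The slopes of the 2 ends were compared gene by gene. With header hours 58 members were called (background 8.33%): 30 lost T>C faster downstream (background 4.81%) and 28 slower (background 3.52%), with a median of -0.0038 log2 per hour and 167 below an unadjusted p of 0.05. With labelled hours, which cannot follow the header hours, edgeR called 0 (background 0.0%, 30 unadjusted, limma 0). The difference between the ends did not pass a test between siFBL and siCTRL in any member (edgeR 0 of 694, background 0.0%; 32 unadjusted, limma 0). Among the faster ones, chosen after values were seen, was ZNF277, a zinc finger protein. In siCTRL its upstream end had T>C in 84.5% and 95.5% of reads at 0 h and 91.1% and 88.0% at 24 h. Its downstream end went from 73.8% and 75.2% to 1.74% and 2.64% (-0.28 log2 per hour, edgeR adjusted p = 6.54e-04). The T>C share of this upstream end in siCTRL was thus still high at 24 h. Such a share was rare: 1 of the 30 faster and 2 of the 28 slower members had an interval over 50% in the header 24 h libraries. Whether it is label kept in the RNA was not tested.

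Of the 9 cleavage and polyadenylation factors among the members, 5 could be tested for T>C, and 3 were lower downstream (background 29.1%) and 1 higher (background 14.2%), too few to read against the background. In PAPOLA, the upstream end had 95.9% and 98.7% T>C reads and the downstream end 74.8% and 77.5% at siCTRL header 0 h. At 6 h it was 70.4% and 63.2% upstream and 27.1% and 26.3% downstream, and at 12 h 47.0% and 53.6% against 17.0% and 15.8%. The upstream end lies above the downstream one in every siCTRL library (log2 odds -2.45 ± 0.36, edgeR adjusted p = 1.68e-05). CSTF3 had 69.4% and 65.1% upstream and 25.7% and 24.5% downstream at 6 h, and 27.7% and 12.9% against 0.264% and 0.647% at 24 h (-3.34 ± 0.41, edgeR adjusted p = 3.39e-06). WDR33, the CPSF subunit that binds the hexamer, was also lower downstream (-2.23 ± 0.44, edgeR adjusted p = 4.29e-04). CPSF6, of cleavage factor I, was higher downstream by 2.19 in read shares and lower in conversions per T position (-5.08, edgeR adjusted p = 1.0), and its upstream interval is 3 nt long.

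**Figure D4:**
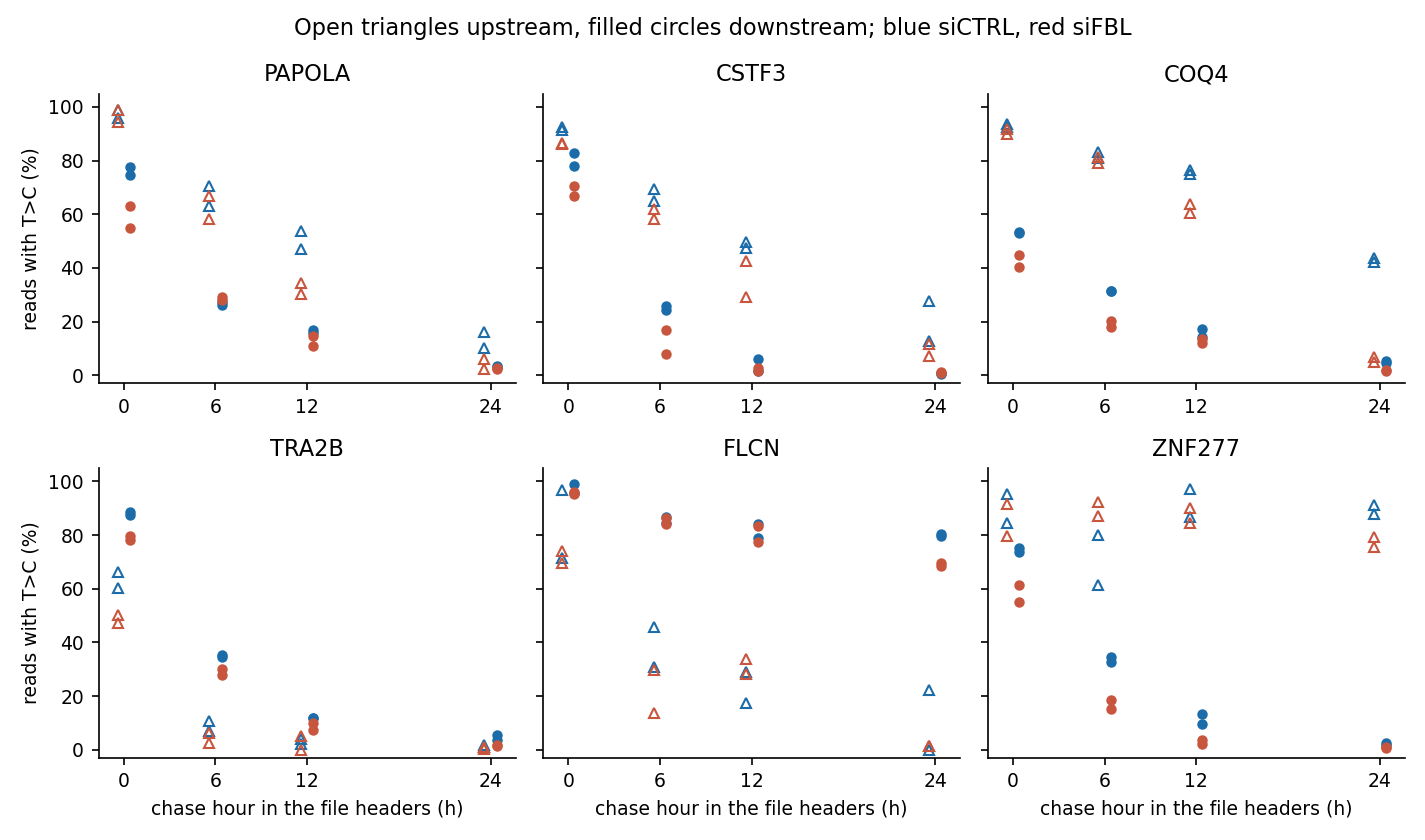
Share of reads with T>C (%) in the upstream and downstream interval against header hour (h) for PAPOLA, CSTF3, COQ4, TRA2B, FLCN and ZNF277, 1 point a library (triangles upstream, circles downstream, blue siCTRL, red siFBL). The upstream interval lies higher in PAPOLA, CSTF3, COQ4 and ZNF277, and the downstream interval lies higher in TRA2B and FLCN at most hours.

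COQ4 had the smallest p of all pairs. Its upstream end had 93.5% and 92.4% T>C reads at siCTRL header 0 h, 83.0% and 80.9% at 6 h, 76.4% and 75.02% at 12 h and 42.1% and 43.7% at 24 h. Its downstream end had 53.3% and 53.1%, 31.5% and 31.4%, 17.2% and 14.4%, and 4.41% and 5.24% (-3.50 ± 0.27, edgeR adjusted p = 1.86e-08). The ranges of the ends do not overlap at any hour. In siFBL at 24 h the upstream end was at 5.03% and 6.72% and the downstream end at 1.47% and 1.98%.

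The largest differences among called members were in genes with few upstream reads. EPC2, a subunit of the NuA4 acetyltransferase complex, had T>C in 93.9% of 424 upstream reads and 25.4% of 6080 downstream reads (-8.17 ± 0.72, edgeR adjusted p = 1.35e-06). CBWD5 had 99.0% of 1407 upstream and 42.8% of 5520 downstream (-7.60 ± 0.73). ZNF738 had 96.6% of 326 and 12.5% of 505 (-8.42 ± 1.66). At header 24 h the upstream end of EPC2 had T>C in 10 of 10 reads in 1 siCTRL library, had 0 reads in the other, and had T>C in 0 of 7 and 4 of 14 reads in siFBL. CBWD5 and ZNF738 are among the 16 members with T>C in over 50% of the reads of 1 interval at that hour.

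Members higher downstream included FLCN, the folliculin tumour suppressor. Its downstream end had T>C in 99.2% and 95.9% of reads at siCTRL header 0 h and in 80.6% and 79.6% at 24 h. Over all intervals those 24 h libraries held 11.1% and 11.2% reads with T>C. The upstream end of FLCN went from 96.8% and 71.3% to 0.0% and 22.2% (4.03 ± 0.41, edgeR adjusted p = 2.29e-07). Per T position the difference was 0.76 (edgeR adjusted p = 0.184), so the call did not hold by that measure. OIP5-AS1, a long noncoding RNA, had T>C in 35.0% of 1582 upstream reads and 81.4% of 1441 downstream reads (4.23 ± 0.66, edgeR adjusted p = 3.45e-05). TBL1X, a subunit of the NCoR corepressor complex, had 17.1% of 4622 and 67.1% of 289 (4.08 ± 0.77). RPL37A and LAMTOR1, a lysosomal scaffold of mTORC1 signalling, were higher at their scarcely read downstream ends, by 2.72 ± 0.52 and 2.60 ± 0.63. TRA2B was higher downstream by 2.27 ± 0.34, with an upstream interval of 18 nt.

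In the other lists few members could be tested, and their counts stand against the same background of 29.1% lower and 14.2% higher. Of 18 receptors with known truncated forms 6 were tested and only EGFR was called, lower downstream. Its upstream end (chr7:55156844-55156951), inside the gene, had T>C in 67.8% of 892 reads and its downstream end in 15.5% of 36366 reads (-3.50 ± 0.61, edgeR adjusted p = 1.28e-04). Of 12 DNA damage genes 2 were tested and both were lower. ATM, the kinase that responds to double-strand breaks, had 97.8% and 89.0% upstream against 86.0% and 91.0% downstream at siCTRL header 0 h, and 69.6% and 79.8% against 30.5% and 26.1% at 6 h (-1.89 ± 0.51, edgeR adjusted p = 0.00581). At 0 h the ATM ends overlapped and at 6 h they did not. RAD51C, a homologous recombination protein, was lower by 0.96 with adjusted p = 0.0394 by edgeR, and the call was lost in 11 of 16 fits that left out a library (adjusted p up to 0.0700). Of 18 chromatin regulators 7 were tested and SETD5 was lower (-2.08 ± 0.66). Of 9 RNA-binding proteins 4 were tested, with RBM39 lower (-5.59 ± 0.72) and TRA2B higher. Of 5 androgen and prostate genes 3 were tested and NCAPD3, a condensin II subunit, was lower (-1.61 ± 0.58). Its call was lost without siCTRL 24 h replicate 2, siFBL 24 h replicate 1 or siFBL 6 h replicate 2 (edgeR adjusted p up to 0.0606). Of 11 cytoskeletal genes ANK3 alone was tested and was lower (-3.45 ± 0.44). SNU13 and RUVBL1, of the box C/D particle and its assembly, were tested and not called. The clustered protocadherins fell below the read filter, and their gamma members share 1 downstream interval.

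With the labelled hour in the fit, levels of single ends were called with siFBL in few members. Each labelled hour holds libraries of 2 header hours, so the spread of that fit also holds differences between header hours. More were called with the header hour, as given below. Libraries were scaled to each other, so fewer cells and less RNA per cell cannot be told apart in them. Of 2286 downstream intervals tested 11 were higher (background over all 32512 intervals, 0.397%) and 9 lower (background 0.474%). Of 1129 upstream intervals 1 was higher and 0 were lower by edgeR. Among calls that held in every fit that left out a library, chosen after their values were seen, SUPT16H, a subunit of the FACT histone chaperone, had 15.3 to 33.0 CPM in siCTRL and 8.45 to 23.8 in siFBL (-0.79 ± 0.15, edgeR adjusted p = 0.0145). ADD1, a cytoskeletal adducin, had 25.9 to 32.3 and 13.8 to 19.1 (-0.79 ± 0.10). The groups do not overlap in ADD1 and do in SUPT16H. SREBF2, the regulator of cholesterol synthesis genes, had 9.60 to 15.3 and 17.1 to 29.6 CPM (0.79 ± 0.13). ELOVL5, a fatty acid elongase, had 110.7 to 141.7 and 175.0 to 323.2 (0.82 ± 0.12). Both are higher in each siFBL library than in any siCTRL library. In C4-2 RNA-seq at 0 h SUPT16H was lower with siFBL as well (-1.23, edgeR adjusted p = 0.0426). ADD1 (-0.44), SREBF2 (-0.014) and ELOVL5 (0.072) were not called there (edgeR adjusted p = 0.424, 0.973 and 0.893). The counts depended on the settings: with the header hour 212 downstream and 70 upstream intervals were called, with DESeq2 95 and 30. No share over all intervals is given for these settings, so their counts cannot be read against the backgrounds above.

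In RIP against input, 1116 of 2431 members tested were higher (45.9%, background 39.9%) and 915 lower (37.6%, background 43.0%), with a median log2 of 0.12 in members, -0.11 in all genes and -0.32 in near genes. Members read mostly downstream (over 90%) were higher in 689 and lower in 447 of 1308 (median 0.30), and those read mostly upstream (under 10%) in 75 and 86 of 193 (median -0.10). Of the chromatin regulators 16 of 16 were higher, of the cleavage factors 7 of 9 with 2 lower (CPSF6 and CPSF7), of the RNA-binding proteins 7 of 9 with 1 lower, and of the DNA damage genes 8 of 11 with 3 lower (RAD51C, CHEK1 and RAD51B). KDM5B, a histone demethylase, had 711 ± 39.3 CPM in RIP and 123 ± 8.51 in input (SD, n = 2 each). SF3B1, a core splicing factor, had 1886 ± 130 and 208 ± 25.01, and ATM 671 ± 1.68 and 60.7 ± 0.564. In all 3 the RIP values lie far above input. PAPOLA had 380 ± 8.40 and 115 ± 4.33 (1.72 ± 0.06, edgeR adjusted p = 3.62e-21). COQ4 was lower in RIP (-1.32 ± 0.09, edgeR adjusted p = 2.24e-14). These counts are per gene and do not say which end was bound, and with 2 libraries each they measure the spread of those libraries.

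In C4-2 RNA-seq at 0 h, 71 of 3492 members were higher with siFBL (background 1.61%) and 247 lower (background 6.87%), with a median of 0.02 against 0.04 over all genes. Members thus stood near the background. Leaving out 1 library gave 12 members higher and 71 lower without siCTRL replicate 1, 47 and 141 without siCTRL replicate 2, 45 and 116 without siFBL replicate 1, and 24 and 152 without siFBL replicate 2, and DESeq2 gave 182 and 492. No share over all genes is given for those fits, so their counts cannot be read against the background. FBL itself was at 286 ± 28.2 CPM with siCTRL and 3.19 ± 0.613 with siFBL. Of the DNA damage list 10 of 11 were lower. FANCI, which works in crosslink repair with FANCD2, had 160 ± 16.7 CPM with siCTRL and 41.5 ± 5.48 with siFBL (SD, n = 2 each). MDC1, a scaffold at DNA breaks, had 271 ± 0.768 and 63.2 ± 6.86. CHEK1, the checkpoint kinase, had 64.7 ± 4.04 and 18.5 ± 1.97. FANCD2, FANCA and BRIP1 were lower too, by -1.93, -1.99 and -1.37 log2 (edgeR), and these 6 kept the call in each fit without 1 library. BRCA1 was lower by -2.20 and lost the call without siFBL replicate 2 (-1.94, edgeR adjusted p = 0.0541). RAD51C lost it without siCTRL replicate 1 (edgeR adjusted p = 0.0761). BARD1 lost it without siCTRL replicate 1 or siFBL replicate 1 (edgeR adjusted p = 0.209 and 0.168), and RAD51B in each of the 4 fits. ATM, at 18.3 ± 1.41 and 15.7 ± 1.68 CPM, was not called (-0.21, edgeR adjusted p = 0.452). In SLAM-seq none of the 10 downstream intervals of this list tested was called. The siFBL libraries of the 2 assays were separate, and a test between them was not made.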

How the data were processed

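The analysis covers the 16 SLAM-seq libraries, 4 RIP and input libraries and 16 C4-2 RNA-seq libraries; HEK293T and nanopore libraries were not analysed here. The SLAM-seq values the authors deposited are counts per annotated interval (reads, reads with T>C, sequenced T positions and T>C conversions), made with slamdunk 0.4.3 on hg38 per the file headers, with Trim Galore named in the submitters' processing notes. Their CPM column, as deposited, counts a read once for each interval overlapped and can sum to over its nominal total, so it was read as a score, for the number of mapped reads alone. RIP and C4-2 values are counts per gene symbol as the authors deposited them. TopHat2 2.1.1, HOMER, hg19, hg38 and GRCh38.p13 are named in the submitters' processing notes without a role, and the aligner, counter and strand setting of these counts were not stated there or in the labels. Reads of overlapping or antisense genes can therefore be mixed.

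Of 117417 lines per SLAM-seq table, 18327 repeated an earlier one and were dropped, and 49 names on more than 1 chromosome or strand were left out. All fits used edgeR 4.0.16 in R 4.3.3 over the whole table, with Benjamini-Hochberg adjusted p below 0.05 called. Usage was the interval by siRNA (or hour) term on the read counts of both intervals with a term for each library, for pairs with at least 20 reads in each interval and 10 in the pair in 8 libraries. The T>C difference compared reads with and without T>C between intervals within each library, for pairs with at least 200 reads in each interval and 20 T>C reads. Level fits used trimmed mean of M-values scaling and labelled hour, and the RIP and 0 h contrasts were fitted per gene. Usage by siRNA, level by siRNA and the T>C difference between ends were tried on simulated data, and the other tests were not. For T>C, 52.2% of 1.5-fold and 91% of 2-fold odds over 1081 pairs were found. That simulation set a fixed spread and, within a library, the same T>C share for all unchanged genes. Its shares found need not hold for the real spread.

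Alternatives were DESeq2 1.42.0, limma 3.58.1 on empirical logits (addend 0.5), other filters, conversions per T position, the header hour, a replicate term, and leaving out libraries. Counts carry no molecular identifiers, so precision from depth covers counting error only. Same-header pairs of libraries differed by more than sampling noise. The genes with distant ends, the gene lists and the tests were chosen with earlier results of these data known. Genes were named by these rules: the smallest p for usage where fewer than 5 were called, the 6 largest called T>C differences each way, the 5 members with the most reads in 3 share classes, the genes beside the gap threshold, and list members called or with the most reads. Some genes that these rules name are not reported here, and others are said to be chosen after their values were seen.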

Additional observations from a re-analysis of the deposited data

Results flagged for a closer look

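Of 24 groups of 8 libraries checked for a library apart from the rest, 3 held one, all in the downstream share of reads with siFBL. Chance marks about 1 in 20 groups. In PDCD6 the lowest siFBL library was at 96.01%, and the nearest other at 97.63%, a gap of 0.646 of the range. In PPM1K, a mitochondrial phosphatase, the lowest siFBL library was at 99.76% and every other at 100.0%. In TTC12, a tetratricopeptide protein, the highest siFBL library was at 0.3257% and every other at 0.0%. The PPM1K and TTC12 values rest on 2 reads each. With every other library at the same bound, the chance rate above need not hold for these 2 genes.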

How the results depend on the processing

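The T>C counts between ends kept their direction: leaving out each library gave 211 to 236 members lower and 63 to 79 higher, and the 2 or 4 libraries of header hour 24 did not decide them. A stricter filter (1000 reads) gave 101 lower and 42 higher of fewer pairs tested. Usage between siRNAs gave 3 calls with DESeq2 and 0 in every fit without a library. By header hour usage gave 136 calls, 233 without the 2 siFBL and 187 without the 4 libraries of header hour 24. The counts of 233 and 187 have no share over all pairs beside them. The T>C slope gave 58 calls by header hour, 72 and 84 without those libraries, and 91 per T position. For the header-hour fits without those libraries or per T position no share over all pairs is given. Leaving out each library under labelled hours gave 0, in a fit that cannot follow the header hours.

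Level calls were the least stable, and no share over all intervals is given for the other settings. Downstream intervals gave 95 calls with DESeq2, 88 without a filter, 212 with the header hour, 80 without the 4 libraries and 8 to 31 without each library in turn. Upstream intervals gave 30, 25, 70 and 22 in that order, 0 without the 2 siFBL libraries and 0 to 3 without each library. In C4-2 at 0 h DESeq2 called 182 higher and 492 lower, and leaving out a library 12 to 47 higher and 71 to 152 lower. In RIP those fits gave 1090 to 1105 higher and 853 to 891 lower. For C4-2 and RIP no share over all genes is given for these settings. The cause of these shifts was not tested.

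Within each labelled hour the SLAM-seq replicate number goes with the header hour in both siRNAs. Whether the numbers pair cultures thus cannot be told. The deviations of same-number libraries correlated by 0.227, 0.00215, 0.221 and 0.0378 at the 4 labelled hours. A replicate block in the SLAM-seq fits also takes up header hours in part. With a replicate block there were 0 usage calls, 240 lower and 79 higher for T>C, 20 downstream and 2 upstream level calls, and 1126 higher and 932 lower in RIP. In C4-2 the column names carry the number, and a replicate block added after the data were seen gave 107 higher and 345 lower. No share over all genes is given for that fit. Deviations of same-number C4-2 libraries correlated by 0.0397, 0.0368, -0.0939 and -0.0117 at 0, 3, 6 and 12 h. With 2 libraries for each siRNA and hour this cannot tell whether the numbers pair cultures.

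Of 1763 alternatives for 88 named results, 1558 kept side and sign, 169 lost a call, 16 gained one and 20 changed sign, 3 of these with a call. CPSF6 turned to -5.08 and -4.96 per T position (labelled and header hour), and PNKD to 0.51 (adjusted p = 0.0407 by edgeR) by header hour without the 4 libraries. The rest were T>C differences not called in either fit. PNKD turned to 0.48 with limma, 0.055 and 0.0075 without the 2 siFBL libraries (labelled and header hour), 0.51 without the 4, and ranged from -0.21 to 0.15 without each library. HERC3 turned to -0.68 with limma, -0.27 per T position and ranged from -0.16 to 0.49 without each library. RP5-940J5.10 turned to -0.10 and -0.11 per T position.

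Depth limits these values most at the upstream ends, where few members passed the read filters. On simulated counts 2-fold usage changes were seldom found.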
